A study of Homo sapiens with 56 samples.

Results

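Untreated HuT102 cells at day 8 were set against untreated cells of the other 3 cutaneous T cell lymphoma (CTCL) lines of the series, MJ, HuT78 and MY-LA, at the same day. The comparison used 16 of the 56 arrays, 4 for each of the 4 lines, chosen by line, treatment and day from the sample labels. The value for HuT102 was compared with the mean of the 3 other group means, each with the same weight, and then with each line on its own. The study grew these lines with or without cobomarsen, an oligonucleotide inhibitor of miR-155, for 4 or 8 days, and none of these 16 arrays came from cells given the oligonucleotide. Cells grew in suspension in plates, were diluted once on the way to day 8 and then received fresh medium, and total RNA of each sample was read on 1 Affymetrix array. HuT102 and MJ are known to carry the human retrovirus HTLV-1. Each line descends from 1 patient, so the 4 arrays of a line sample that line and not a group of patients. Whether the 4 arrays of a line stand for separate cultures is not stated, and the p-values then measure only the spread between these samples, which may be technical. The numbers in the sample titles form 2 runs, 1 with HuT102 and MJ and the other with HuT78 and MY-LA. Line and run cannot be told apart for HuT78 and MY-LA, whereas the difference between HuT102 and MJ lies within 1 run. The values for MJ are given for many genes and some lists, while other lists have counts against the mean alone. These are bulk RNA samples, in which fewer cells with a transcript and less of it per cell cannot be told apart.

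Interferons bind receptors that act through the JAK kinases and STAT factors, and complexes that hold the factor IRF9 then bind a short element in the promoters of antiviral genes. CTCL cells are mature T cells with a skin-homing origin that usually keep CD4, CCR4 and the T helper factor GATA3. IL-15 and IL-2 signal through shared receptor chains and sustain such cells, and the Tax protein of HTLV-1 is known to raise several genes of that circuit.

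Of all gene lists examined, the interferon-stimulated genes had the highest share of members that differed between HuT102 and the other lines, so stretches of their promoters are shown first. They come from the RefSeq promoter windows of GRCh38.p14, which run from 250 bases before to 50 after each gene's start, and each stretch has 30 bases on the strand of the gene. Capitals mark the first match, on either strand and wholly before the gene's start, to the core of the interferon response element. That core is GAAA, 2 bases of any kind and GAAA again. A match on the opposite strand reads as TTTC, 2 bases and TTTC. The first 7 genes were higher in HuT102 than in each other line, and the last pair, IFITM1 and IFITM3, were lower than in each.
IFI44L, chr1:78620274-78620303, plus strand: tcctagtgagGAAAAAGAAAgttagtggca
IFIT1, chr10:89392497-89392526, plus strand: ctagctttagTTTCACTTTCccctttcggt
IFIT3, chr10:89327831-89327860, plus strand: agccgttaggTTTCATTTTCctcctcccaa
ISG15, chr1:1013374-1013403, plus strand: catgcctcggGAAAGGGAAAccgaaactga
IFI6, chr1:27672329-27672358, minus strand: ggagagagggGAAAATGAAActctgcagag
OAS3, chr12:112938321-112938350, plus strand: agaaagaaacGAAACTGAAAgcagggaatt
HERC5, chr4:88456984-88457013, plus strand: ctcattacagTTTCCTTTTCcttttcgatt
IFITM1, chr11:313990-314019, plus strand: caaacagcagGAAATAGAAActtaagagaa
IFITM3, chr11:320893-320922, minus strand: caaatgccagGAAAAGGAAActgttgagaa
Matches at or after the start were passed over, so the place of the printed ones before it was set by that choice. The printed match began 164 bases before the start for IFI44L, 113 for ISG15, 40 for IFITM1 and 52 for IFITM3. Among interferon-stimulated genes read on the array with a window in the table, 27 of 38 (71.1%) held the motif anywhere in the window. Among all 27305 genes with a window, 1195 (4.38%) held it. It was present in 25 of the 35 such genes that were higher in HuT102 and in 2 of the 2 that were lower. A match is a string of letters and was not tested as a binding site.

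Signals are MAS5 intensities in arbitrary units, given as mean ± SD of the 4 arrays of a line, and differences are log2(signal + 16) of HuT102 minus another line, ± SE. A signal of 74.0 was taken as the level near background, and where a group mean lay under it the signals stand in place of a difference. Each gene was read from 1 probe set, so a gene said to be under background was so on that probe set. Of the genes named, 10 had another probe set over background in a line where the one used was under it, namely ADARB1, ARHGEF10, BID, CD274, DUSP1, DUSP6, EGR1, IL1A, IRS4 and LRIG1. The trimmed means of the 16 arrays, on a common scale, were 500.06 to 500.08, and their median signals ranged from 61.6 to 83.2. The ratio of 3 prime to 5 prime GAPDH probe sets was 0.890 to 0.961 and that of ACTB 1.02 to 1.17, so no array stood apart by this measure of RNA quality. Between arrays of 1 line the correlation of log2 signals over genes was 0.968 to 0.980, and between HuT102 and the other lines its median was 0.910 for MJ, 0.874 for MY-LA and 0.863 for HuT78. The number of arrays and their signal over background limit the precision.

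HuT102 differed from the equal-weight mean in 3135 of 19775 genes (15.9%) by at least 1 on the log2 scale at an adjusted p under 0.05, of which 1633 (8.26%) were higher and 1502 (7.6%) lower. The adjusted p alone was passed by 9206 genes (46.6%). Against MJ, in the same run, 1329 genes were higher and 1618 lower (14.9% of genes). Against HuT78 the numbers were 2523 and 2302 (24.4%), and against MY-LA 2199 and 1880 (20.6%). The other pairs of lines differed in 4195 genes for MJ and HuT78 (21.2%), 3715 for MJ and MY-LA (18.8%) and 4856 for HuT78 and MY-LA (24.6%), so HuT102 and MJ had the lowest number of the pairs. A total of 668 genes (3.38%) were higher in HuT102 than in each of the 3 lines by the same thresholds, and 379 (1.92%) were lower than in each. In 644 and 358 of these the 4 HuT102 arrays did not overlap any of the other 12, as was so for 7.77% and 7.22% of all genes irrespective of the test. In 244 of the 668 all 3 other lines lay under the background level, and in 178 of the 379 HuT102 lay under it. These 3 comparisons share the HuT102 arrays.

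The genes furthest above every other line were present at high signal in HuT102 and near background elsewhere, and they came from varied families. G0S2, an inhibitor of the lipase ATGL, read 27224, 27688, 26907 and 27076 in the HuT102 arrays, 29.7, 6.07, 5.10 and 29.8 in MJ, 35.1, 7.11, 29.6 and 8.04 in HuT78 and 29.4, 36.8, 45.2 and 60.8 in MY-LA. Every array outside HuT102 was thus under the background level, and the adjusted p against the mean was 1.55e-17. DDIT4L, a relative of the mTOR regulator DDIT4, read 18926 ± 1216 in HuT102 and 21.7 to 33.9 on average in the other lines. IRS4, an insulin receptor substrate seldom found in blood cells, read 8384 ± 682 against at most 24.6. HS6ST2, which sulphates heparan chains, read 6216 ± 433 against at most 21.1. PRL, the hormone prolactin, read 10453 ± 932 in HuT102, 79.7 ± 24.3 in MJ, 31.9 ± 15.2 in HuT78 and 70.1 ± 26.7 in MY-LA. The lowest HuT102 array for PRL was 9231 and the highest of the other 12 arrays 115.

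TUBB2B, a beta-tubulin whose probe set may also read the near-identical TUBB2A, gave 4491 ± 693 in HuT102 and 15.2 to 24.5 elsewhere. KIF1A, a kinesin motor of axons, gave 2739 ± 455 against 17.2 to 21.2. NR2F1, an orphan nuclear receptor of development, gave 1371 ± 59.03 against 4.99 to 7.33. The other lines therefore had no signal over background for these 3 genes. PLPPR4, a neuronal membrane protein, read 2490.1 ± 200.2 against at most 24.7, and AKAP12, a scaffold of protein kinase A, read 2673 ± 394 against at most 36.4. ADAM12, a membrane-anchored protease, read 5302 ± 507 against at most 43.9.

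CRIP1, a small zinc-binding protein, was the gene furthest below every other line. It read 3.07, 59.7, 22.8 and 23.4 in HuT102, 13786, 12327, 13262 and 13058 in MJ, 4592, 5116, 4766 and 4584 in HuT78 and 9762, 10926, 12144 and 11019.6 in MY-LA. SIT1, an adaptor that restrains T cell receptor signalling, read 22.5, 25.3, 20.8 and 17.8 in HuT102 and 2491 ± 224 in MJ, 2962 ± 404 in HuT78 and 2233 ± 170.2 in MY-LA. Both genes were thus under the background level in each HuT102 array and among clearly read genes in each other array, with adjusted p = 9.8e-18 and 2.96e-21 against the mean. CD48, a surface ligand found on nearly all blood cells, was read in HuT102 but low, at 348, 353, 319 and 408. The other lines gave 13305 ± 1029 in MJ, 8184 ± 749 in HuT78 and 10898 ± 1351 in MY-LA, a log2 difference of -5.16 ± 0.09 to MJ, -4.46 ± 0.09 to HuT78 and -4.87 ± 0.09 to MY-LA. SNX10, a sorting nexin, read 90.98 ± 17.2 in HuT102 and 4717 ± 211 in MJ, a difference of -5.48 ± 0.11. RFLNB, a regulator of filamins, read 75.6 ± 8.20 in HuT102 against 2409.8 ± 298 in MJ, 3574 ± 271 in HuT78 and 7963 ± 765 in MY-LA.

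BID, a pro-apoptotic member of the BCL2 family, was among the genes lower than in every line. It gave 19.5 ± 23.3 in HuT102, 684 ± 36.9 in MJ, 2746 ± 238 in HuT78 and 1087 ± 63.8 in MY-LA. LRIG1, which curbs receptor tyrosine kinases, gave 6.44 ± 5.72 in HuT102 against 3619.8 ± 355, 9715 ± 968 and 529 ± 126 in MJ, HuT78 and MY-LA. ATP2A3, the calcium pump SERCA3, gave 15.6 ± 5.58 against 830.3 ± 65.1, 2014 ± 209.9 and 814 ± 114. On these probe sets HuT102 lay under background for the 3 genes, while every array of the other lines lay over it. Another probe set of BID read 95.5 in HuT102 and another of LRIG1 143, and both were called lower than the mean too. ADARB1, an RNA-editing deaminase, read 15.8 ± 12.8 in HuT102 against 982 ± 79.8 in MJ, but 2 other probe sets of ADARB1 read 144 and 110.5 in HuT102 and differed from the mean by -0.36 and -0.40, which was not called. TMC8, a membrane protein of lymphocytes, read 18 ± 4.15 against 879.6 ± 84.8. NAP1L5, an imprinted nucleosome assembly factor, read 2.80 ± 1.83 against 776 ± 73.6, and HENMT1, a methyltransferase of small RNAs, 50.97 ± 24.3 against 1606 ± 103. RPL39L, a ribosomal protein copy whose probe set may also read RPL39, gave 57.1 ± 14.1 against 1653 ± 123, and PTPRN2, a protein of secretory granules, 6.17 ± 2.83 against 529 ± 65.9.

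**Figure D1:**
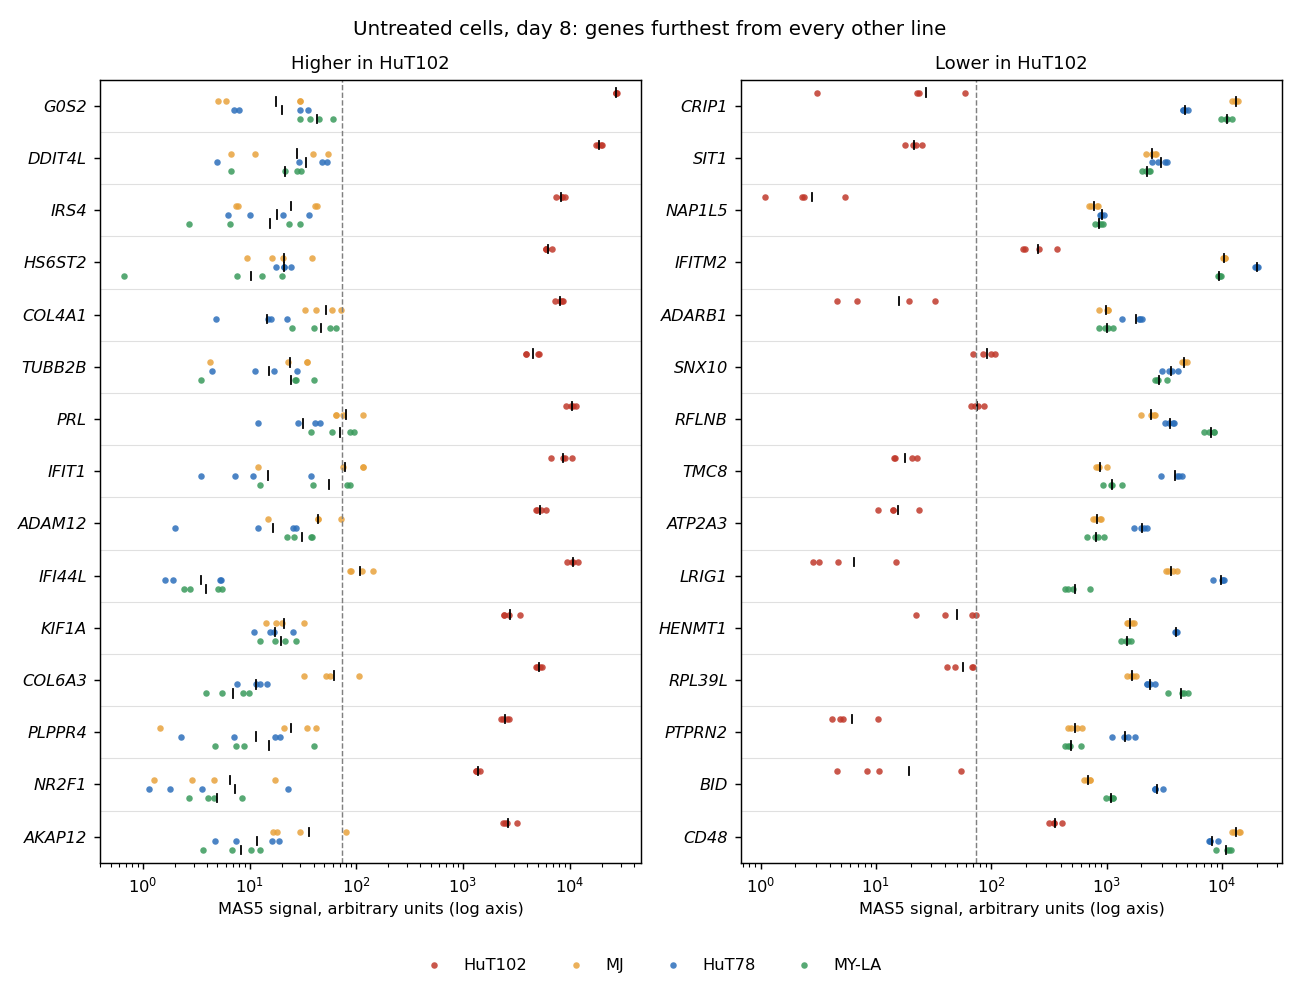
Each point is the MAS5 signal of 1 array on a log axis for the 15 genes furthest above (left) and the 15 furthest below (right) every other line at day 8; short black bars are means of 4 arrays and the dashed line is the background level of 74.0. For G0S2 the HuT102 arrays lie at 26907 to 27688, and for CRIP1 the HuT102 arrays lie under the dashed line while the other 12 arrays lie at 4584 or above.

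The genes with the largest difference to a single line showed how much each line contributed to the mean. MEST, an imprinted hydrolase, was among the 5 furthest above MJ, at 8998 ± 405 in HuT102 against 36.7 ± 18.8, but HuT78 read 1758 ± 63.04. CA2, a carbonic anhydrase, read 12919 ± 1435 in HuT102, 1594 ± 124 in MJ, and 2.43 and 2.29 in HuT78 and MY-LA. ZBED2, a transcription factor of T cells and epithelia, read 14963 ± 589 in HuT102, 1276 ± 158 in MJ, 4.70 ± 1.30 in HuT78 and 396 ± 33.9 in MY-LA. HuT102 was thus the highest line for these 3 genes. BASP1, a membrane-bound signalling protein, read 17826 ± 1516 in HuT102, 11.9 ± 8.02 in HuT78 and 21506 ± 749 in MJ. Some of the genes furthest below 1 line were read in that line alone, and others in a second line as well. PGM5, a relative of phosphoglucomutase, gave 10324 ± 734 in MJ against 5.84 in HuT102 and at most 12.4 in HuT78 and MY-LA. ARHGEF10, a guanine nucleotide exchange factor, gave 7026 ± 379 in MJ and 28.3 ± 17.9 in HuT102, though another of its probe sets gave 109 in HuT102 and 86.6 in MJ. BHLHE22, a neuronal transcription factor, gave 7258 ± 766 in MJ, 145 ± 15.1 in HuT78 and 36.6 ± 21.2 in HuT102. CA10, an inactive relative of carbonic anhydrases, gave 9247 ± 806 in MY-LA against 2.99 in HuT102. SYT4, a synaptotagmin, gave 19949 ± 3056 in MY-LA and 1521 ± 135 in MJ against 31.99 ± 20.4 in HuT102. CSTA, the protease inhibitor cystatin A, gave 21099 ± 3208 in MY-LA, 242 ± 28.2 in MJ and 12.6 ± 13.1 in HuT102. WFDC1 gave 18088 ± 1284 in MY-LA and 4102 ± 354 in HuT78 against 7.99 ± 6.02 in HuT102. PLAC8 gave 13379 ± 1072 in HuT78 and 2827 ± 215 in MJ against 8.04 ± 6.41 in HuT102, and SPINT2, a protease inhibitor, 11647 ± 659.8 in HuT78 and 204 ± 29.6 in MJ against 12.2 ± 5.71. On the probe sets used, HuT102 was under background for these 9 genes.

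Interferon-stimulated genes were higher in HuT102 almost throughout. Of the 50 listed, 48 were read by a probe set with a single symbol, and 43 of these were higher than the equal-weight mean and 3 lower, against 8.26% and 7.6% of all genes. The median difference of the list was 3.54, where that of all genes was 0.01. Against MJ, in the same run, 39 were higher and 4 lower with a median of 2.36 (all genes 6.72% and 8.18%). Against HuT78 the counts were 35 and 3 (median 2.71, all genes 12.8% and 11.6%) and against MY-LA 40 and 3 (median 4.92, all genes 11.1% and 9.51%). HuT102 was the highest of the 4 lines in 41 of the 48, and MY-LA the lowest in 28. A total of 29 were higher than in each line and 3 were lower than in each, where 3.38% and 1.92% of all genes were.

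MX1, a GTPase that blocks viral replication, read 23704, 19081, 21413 and 24078 in the 4 HuT102 arrays. It read 367, 190, 382 and 343 in MJ, 339, 348, 389 and 422 in HuT78 and 95.3, 118, 85 and 142 in MY-LA. No array of another line came near the lowest of HuT102, and the differences were 6.08 ± 0.17 to MJ, 5.82 ± 0.17 to HuT78 and 7.47 ± 0.17 to MY-LA (adjusted p = 1.82e-16, 1.02e-16 and 2.29e-18). IFI44L, an interferon-induced protein of uncertain mechanism, read 10780.3, 9484, 10575 and 11879 in HuT102, 144, 114, 90.05 and 87.7 in MJ, and no more than 5.55 in any array of HuT78 or MY-LA. Its difference to MJ was 6.44 ± 0.19 (adjusted p = 3.56e-16). IFIT1, which binds viral RNA caps, read 9050.1, 6750.2, 8574 and 10466 in HuT102 and 116, 12.03, 74.5 and 114 in MJ, while HuT78 gave 14.8 ± 15.4 and MY-LA 55.5 ± 36.1. IFIT3, its partner, read 18664 ± 2489 in HuT102 and was over background in every line, with differences of 4.56 ± 0.12 to MJ, 5.73 ± 0.12 to HuT78 and 3.85 ± 0.12 to MY-LA.

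The oligoadenylate synthetases, which make the messenger that activates RNase L, were higher in HuT102 than in each line. OAS1 read 10582, 8257, 10098 and 10968 in HuT102 and 334 ± 41.4 in MJ, a difference of 4.84 ± 0.16, and 117 ± 20.6 and 28.4 ± 8.50 in HuT78 and MY-LA. OAS2 read 6297 ± 580.2 against 607 ± 48.9, 430.4 ± 17.5 and 176 ± 27.8 in MJ, HuT78 and MY-LA. OAS3 differed by 3.35 ± 0.16 from MJ and 2.66 ± 0.16 from HuT78, with 41.1 ± 16.7 in MY-LA under background. OASL differed by 4.11 ± 0.14 from MJ, 4.73 ± 0.14 from HuT78 and 3.77 ± 0.14 from MY-LA. In each of the 4 genes the HuT102 arrays lay over all others. The ubiquitin-like ISG15 was already high elsewhere, at 34074 ± 3655 in HuT102, 11542 ± 439.7 in MJ, 5265 ± 357 in HuT78 and 3156 ± 406 in MY-LA, and its difference to MJ was 1.55 ± 0.09. HERC5, the ligase that attaches ISG15, read 5709 ± 773 in HuT102 with a difference of 2.31 ± 0.14 to MJ, and USP18, which removes it, 3419 ± 684 with a difference of 4.40 ± 0.21. Both were lowest in MY-LA, at 56.2 ± 16.03 and 12.3 ± 4.42.

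IFI6 read 13434 ± 1074 in HuT102, 1338 ± 45.2 in MJ, 929 ± 29.6 in HuT78 and 69.3 ± 17.1 in MY-LA. IFI44 differed by 3.47 ± 0.10 from MJ, 4.25 ± 0.10 from HuT78 and 6.17 ± 0.10 from MY-LA. RSAD2, the antiviral enzyme viperin, read 3494 ± 713 in HuT102, 517 ± 64.5 in HuT78, 50.4 ± 24.4 in MJ and 29.4 ± 23.5 in MY-LA. HuT78 thus came second for RSAD2, whereas MJ came second for IFI6 and IFI44. The factors of the pathway were higher as well. IRF7, which drives interferon transcription, differed by 3.02 ± 0.12 from MJ, 3.62 ± 0.12 from HuT78 and 5.18 ± 0.12 from MY-LA. IRF9, the DNA-binding part of the STAT complex, differed by 1.27 ± 0.08, 2.99 ± 0.08 and 1.95 ± 0.08. IFIH1, a cytosolic sensor of double-stranded RNA, differed by 2.05 ± 0.09, 3.0 ± 0.09 and 1.42 ± 0.09.

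Not all members set HuT102 apart from every line. MX2, a relative of MX1 at the nuclear pore, read 4675 ± 505 in HuT102 and 3104 ± 96.8 in MY-LA, a difference of 0.58 ± 0.10, though MJ and HuT78 read 206 ± 23.2 and 205 ± 24.1. XAF1, a pro-apoptotic partner of XIAP, read 6828 ± 524 in HuT102 and 4802 ± 332 in HuT78, a difference of 0.51 ± 0.15. CMPK2, a mitochondrial nucleotide kinase, read 5592 ± 787 in HuT102 and 3230.2 ± 249 in HuT78, a difference of 0.78 ± 0.25, and lay under background in MJ and MY-LA. A second line thus came close to HuT102 in each of these 3 genes, and it was not the same line throughout. IFI27 was higher than in each line at day 8, with 1841 ± 504 in HuT102 and 399 ± 45.1 in MJ. IRF1 and GBP5, which interferon gamma raises, were the members that passed the threshold in neither direction against the mean.

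The IFITM genes, which block virus entry at membranes, went the opposite way. IFITM2 read 369.9, 196, 258 and 187 in HuT102, 10696, 10264, 10509 and 10564 in MJ, 20454, 19396, 19672 and 20213 in HuT78 and 9714, 9468, 9539 and 9169 in MY-LA. IFITM3 read 584, 449, 536 and 602 in HuT102, 8193, 8939, 9091 and 8338 in MJ, 15868, 15134, 15402 and 16154 in HuT78 and 9354, 8947, 9616 and 10056 in MY-LA. HuT102 lay below all other arrays for both, with differences of -5.34 ± 0.13 and -3.96 ± 0.07 to MJ (adjusted p = 1.33e-17 and 2.48e-19). IFITM1 was lower by less, at 5726 ± 719.9 in HuT102 against 15019 ± 366 in MJ, 34009 ± 1303 in HuT78 and 17589.5 ± 699.8 in MY-LA, a difference of -1.40 ± 0.07 to MJ. IFITM1, IFITM2 and IFITM3 are related neighbours on chromosome 11, so their probe sets may share signal and their separate sizes are uncertain. The same 4 arrays of HuT102 gave the highest signals of IFIT3, ISG15 and MX1.

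**Figure D2:**
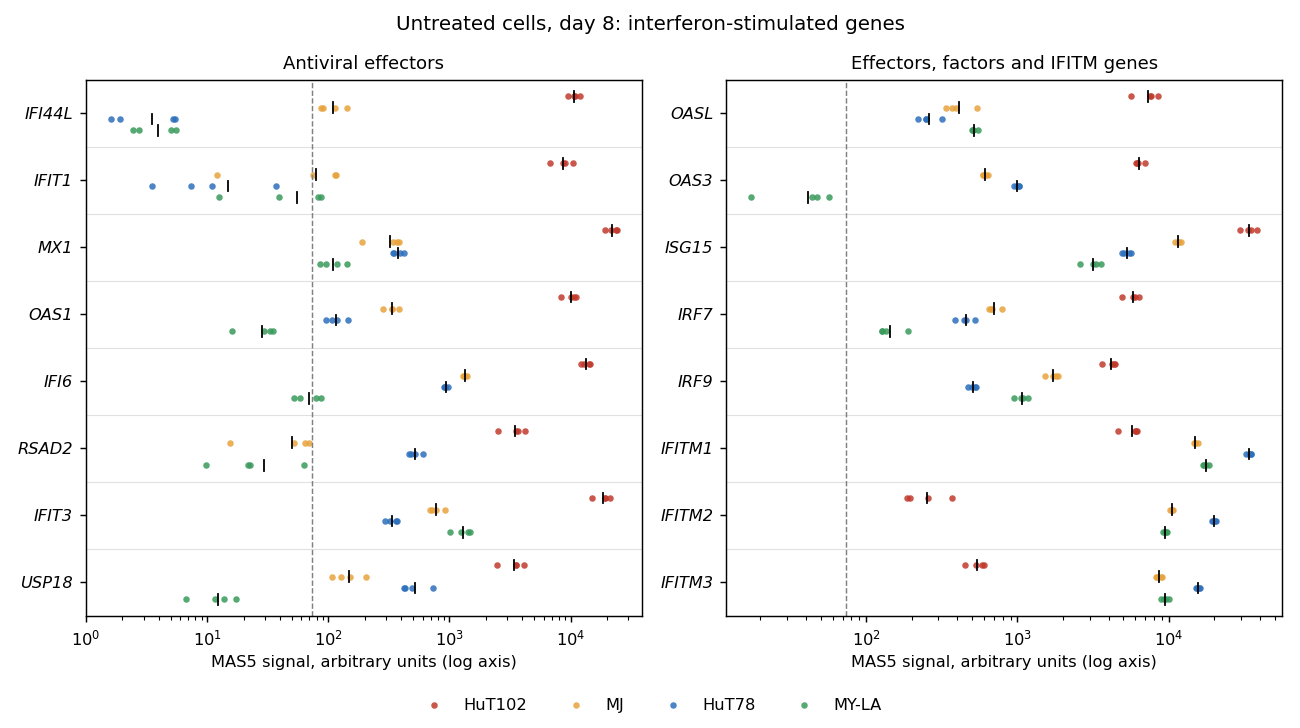
MAS5 signal of each array on a log axis for 16 interferon-stimulated genes at day 8, coloured by line; short black bars are means of 4 arrays and the dashed line is the background level of 74.0. HuT102 lies to the right of every other line in 13 genes and to the left of every other line in the 3 IFITM genes.

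Chemokines were the list with the next largest median. Of 20 listed, 19 were read, and 13 were higher in HuT102 than the mean and 2 lower, with a median of 2.80 (all genes 8.26% and 7.6%). Against MJ the counts were 8 and 2 with a median of 0.75 (all genes 6.72% and 8.18%). CCL4, a chemokine of inflammation whose probe set may also read the CCL4L copies, read 6277, 4894, 5827 and 5734 in HuT102 and 2410, 1815, 2363 and 1682 in MJ, a difference of 1.46 ± 0.19. HuT78 and MY-LA gave 13.3 ± 5.27 and 20.2 ± 10.01, under background in every array. CCL17, a ligand of CCR4, read 5318 ± 412 in HuT102, 497 ± 42.9 in MJ and 1272 ± 146 in MY-LA, differences of 3.38 ± 0.20 and 2.05 ± 0.20, and was under background in HuT78. CCL20, the ligand of CCR6, read 1722 ± 229 in HuT102 with differences of 4.08 ± 0.18 to MJ and 2.65 ± 0.18 to HuT78. CCL2, which draws monocytes, read 1537 ± 334 in HuT102, 136 ± 43.9 in MJ and under background elsewhere. HuT102 was the highest line for these 4 genes with no overlap of arrays.

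Other chemokines were shared with 1 or more lines. CXCL10, an interferon-induced ligand of CXCR3, read 28269.9 ± 3058 in HuT102, 16774 ± 337 in MJ and 10654 ± 958 in MY-LA, with 114 ± 8.09 in HuT78. The difference to MJ was 0.75 ± 0.08 and to HuT78 7.76 ± 0.08. CXCL11, of the same family, read 842 ± 139 in HuT102 and 148 ± 1.90 in MY-LA and lay under background in MJ and HuT78. CCL1, a ligand of CCR8, read 7029.5 ± 1429 in HuT102 and 10772 ± 938 in MJ, a difference of -0.64 ± 0.15 that was not called, and lay under background in HuT78 and MY-LA. CCL22, which like CCL17 binds CCR4, read 3106 ± 836 in HuT102, 3966 ± 402 in MJ and 287 ± 54.8 in MY-LA. CXCL8, the neutrophil chemokine IL-8, read 23.7 ± 24.6 in HuT102 and 23.04 ± 16.96 in HuT78, both under background, against 1132 ± 114 in MJ and 216 ± 39.8 in MY-LA.

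Among 31 helper and inflammatory cytokines read of 35 listed, 9 were higher than the mean and 11 lower (all genes 8.26% and 7.6%). The median of this list turned with the line, at -0.34 against the mean, -0.09 against MJ, 0.36 against HuT78 and 0.26 against MY-LA. IL15, a growth factor of memory T and NK cells, read 29834, 25953, 27670.1 and 28971 in HuT102, 539.8, 543, 473 and 481 in MJ, 90.8, 80.2, 91 and 112 in HuT78 and 6088, 8319, 8398 and 6856 in MY-LA. The HuT102 arrays lay far over MJ, by 5.74 ± 0.10, and over HuT78, by 8.01 ± 0.10, but MY-LA came closer, at a difference of 1.93 ± 0.10 (adjusted p = 1.91e-19, 1.39e-22 and 8.84e-13). IL26, a cytokine of T helper 17 cells, read 1521, 2278, 2474 and 2492 in HuT102 and 704, 619.5, 638 and 755 in MJ, a difference of 1.64 ± 0.20, and under background in HuT78 and MY-LA. IL24 read 323 ± 32.1 in HuT102 and under background in the 3 other lines. TNF differed by 1.75 ± 0.09 from MJ, 2.53 ± 0.09 from HuT78 and 1.74 ± 0.09 from MY-LA. These 4 cytokines were higher than in every line.

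IFNG, the type II interferon, was high in both lines that carry HTLV-1. It read 4994, 5136, 5017 and 6326 in HuT102, 4056, 3184, 3413 and 3330.1 in MJ, 145, 180.3, 236 and 147 in HuT78 and 29.3, 33.5, 3.43 and 22.7 in MY-LA. The difference to MJ was 0.62 ± 0.21 (adjusted p = 0.0259), under the size asked for a call, and that to HuT78 was 4.82 ± 0.21. LTA, lymphotoxin alpha, read 20689 ± 1153 in HuT102, 10764 ± 596 in MJ, 14283 ± 478 in MY-LA and 721 ± 46.6 in HuT78. EBI3, a subunit of IL-27 and IL-35, read 8474 ± 528 in HuT102, 6422 ± 274 in MJ and 4545 ± 203 in MY-LA and under background in HuT78. The type 2 cytokines IL5, IL13 and IL4 were lower in HuT102 than the mean. IL5, which sustains eosinophils, read 3.11 ± 1.51 in HuT102 and 3.79 ± 2.78 in HuT78 against 2724 ± 91.1 in MJ and 3026 ± 271 in MY-LA. IL13 read 378 ± 101.8 in HuT102, 3026 ± 170.1 in MJ and 5546 ± 359.8 in MY-LA, differences of -2.98 ± 0.17 and -3.85 ± 0.17, while HuT78 was under background at 45.1 ± 18.3. IL4 read 11.04 ± 4.49 in HuT102 against 197 ± 14.96 in MJ and 165 ± 25.9 in HuT78. The MY-LA arrays of IL4 read 28.9, 28.8, 6.86 and 54.4, under background like HuT102. IL1A, an alarmin, read 29.2 ± 27.3 in HuT102 and 7.27 ± 4.29 in HuT78 against 2031 ± 219 in MJ and 5000.5 ± 626 in MY-LA. HuT102 and HuT78 were thus both low for IL5 and IL1A, though another probe set of IL1A read 129.7 in HuT102 and 230.4 in HuT78 and was not called against the mean. TGFB1, an inhibitory cytokine, was lower than in every line, with differences of -1.10 ± 0.09 against MJ, -1.58 ± 0.09 against HuT78 and -1.40 ± 0.09 against MY-LA. LTB, lymphotoxin beta, read 1000.3 ± 60.9 in HuT102 and 763 ± 117 in MJ against 18982 ± 1140 in HuT78 and 8859.8 ± 847 in MY-LA.

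Of 35 cytokine receptors, all read, 16 were higher than the mean and 7 lower (all genes 8.26% and 7.6%), with a median of 0.77. Against MJ the counts were 9 and 8 with a median of 0.28 (all genes 6.72% and 8.18%). IL2RB, the beta chain that IL-2 and IL-15 share, read 17979, 16198, 15911 and 17861 in HuT102, 5155, 5217, 5174 and 4561 in MJ, 994, 1057, 1045 and 697 in HuT78 and 1713, 1535, 1066 and 1102 in MY-LA. HuT102 lay over every other array, with differences of 1.75 ± 0.13 to MJ, 4.16 ± 0.13 to HuT78 and 3.66 ± 0.13 to MY-LA. IL2RA, the alpha chain of the IL-2 receptor, behaved otherwise. It read 15921 ± 410.4 in HuT102, 16246 ± 1098 in MJ, 18778 ± 1498 in MY-LA and 234 ± 21.1 in HuT78, so its excess over the mean came from HuT78. The difference of IL2RA to MJ was -0.03 ± 0.07 (adjusted p = 0.816). IL15RA differed by 0.79 ± 0.11 from MJ, 1.98 ± 0.11 from HuT78 and 0.82 ± 0.11 from MY-LA.

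IL6ST and OSMR, receptor chains of the IL-6 family, were higher in HuT102 than in each line, whereas IL6R and LIFR were not called against the mean and IL27RA was lower than in each line. IL6ST, the shared chain gp130, read 9491, 8720.2, 8694 and 8609.7 in HuT102, 363, 385.4, 342 and 430.2 in MJ, 1989, 1828, 1846 and 1810.3 in HuT78 and 442, 427, 548 and 609 in MY-LA. The groups did not overlap, and the differences were 4.49 ± 0.10, 2.24 ± 0.10 and 4.10 ± 0.10. OSMR, the oncostatin M receptor, read 1457, 1575, 1485 and 1253 in HuT102, and its group means in MJ, HuT78 and MY-LA were 51.3, 42.6 and 38.9, all under background. IL13RA1, a chain of the IL-13 receptor, read 1185 ± 106 in HuT102 and at most 40.1 on average elsewhere. Receptors lower than in every line included IL9R, at 209.7 ± 56.5 in HuT102 against 7909.5 ± 115 in MJ, 1310.3 ± 112 in HuT78 and 4958 ± 632 in MY-LA. CRLF2, the receptor for the skin cytokine TSLP, read 13.9 ± 1.59 in HuT102 and 58.8 ± 24.2 in HuT78 against 1564 ± 250.5 in MJ and 1664 ± 137 in MY-LA. HuT102 and HuT78 both lay under background for CRLF2, so the difference between these lines is of values near the floor.

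**Figure D3:**
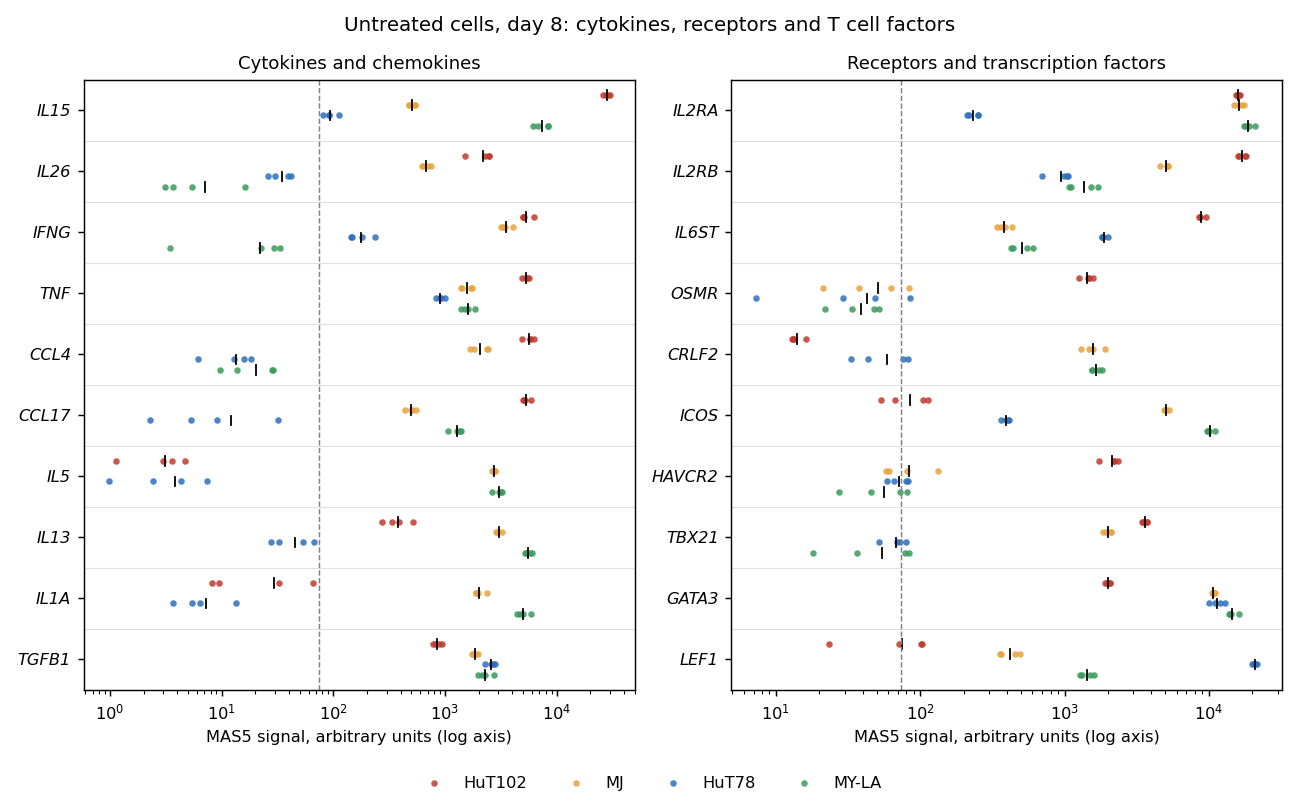
MAS5 signal of each array on a log axis for 10 cytokines and chemokines (left) and 10 receptors and transcription factors (right) at day 8, coloured by line; short black bars are means of 4 arrays and the dashed line is the background level of 74.0. IL15, IL2RB and IL6ST are highest in HuT102, IL2RA is similar in HuT102 and MJ, IFNG of MJ lies just under that of HuT102, and GATA3, ICOS and TGFB1 are lowest in HuT102.

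Of 34 chemokine receptors and homing molecules read of 36 listed, 6 were higher and 12 lower than the mean (all genes 8.26% and 7.6%). CCR4, the skin-homing receptor of CTCL, read 722 ± 109 in HuT102, 4158 ± 268 in MJ, 2804 ± 182 in HuT78 and 2306 ± 285 in MY-LA. The differences were -2.51 ± 0.10, -1.95 ± 0.10 and -1.66 ± 0.10, so HuT102 was the lowest line. CCR10, the other receptor that guides T cells to skin, read 32.8 ± 21.9 in HuT102 against 482 ± 32.8 in MJ, 224 ± 6.69 in HuT78 and 479.7 ± 81.5 in MY-LA. CCR6, the receptor for CCL20, was instead higher than in every line, at 821 ± 196 in HuT102, 58.03 ± 12.3 in MJ and 79.3 ± 28.5 in MY-LA. The integrin chains ITGB7 and ITGB1, which pair with ITGA4, were also higher than in every line. ITGB7 differed by 2.72 ± 0.12 from MJ, 2.62 ± 0.12 from HuT78 and 4.04 ± 0.12 from MY-LA, and ITGB1 by 1.06 ± 0.07, 2.20 ± 0.07 and 1.82 ± 0.07.

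The T cell receptor complex was uneven across the lines. Of 23 genes of the complex and its proximal kinases read of 24 listed, 8 were higher and 5 lower than the mean. Of all genes, 8.26% were higher and 7.6% lower. CD3D was lower in HuT102 than the mean, with differences of -0.49 ± 0.07 to MJ, under the size asked for a call, -1.57 ± 0.07 to HuT78 and -1.17 ± 0.07 to MY-LA. CD3E read 168 ± 35.7 in HuT102 and 100.2 ± 32 in MY-LA, against 1119.7 ± 85.7 in MJ and 964 ± 81.4 in HuT78. Low CD3E thus placed HuT102 with MY-LA. CD3G and CD247 differed from the mean by -0.62 ± 0.10 and -0.28 ± 0.05, under the size asked for a call. CD4 read 3847 ± 247 in HuT102, 2306 ± 312 in MJ, 506 ± 21.3 in HuT78 and 59.9 ± 37.5 in MY-LA. CD2, an adhesion receptor, read 10466 ± 837 in HuT102, 6965 ± 472 in MJ, 44.5 ± 9.27 in HuT78 and 14596 ± 1162 in MY-LA. HuT102 had the highest CD4 signal, and CD2 was high in each line but HuT78. CD5 read 3121 ± 358 in HuT102, 2759 ± 302 in MJ, 1491 ± 143 in HuT78 and 29.1 ± 13.3 in MY-LA. Its difference to HuT78 of 1.06 ± 0.15 fell just under the size asked for a call without array 1 of HuT102 (0.999) or array 2 of HuT78 (0.992). LCK, the kinase of CD4, differed by -1.10 ± 0.11 from MJ and -2.11 ± 0.11 from HuT78, while MY-LA at 12.3 ± 6.76 was under background. HuT102 was thus lower than both lines with LCK over background, although it was called higher than the mean of the 3. PTPRC, the phosphatase CD45, was higher than in every line, by 4.10 ± 0.07 against MJ, 1.48 ± 0.07 against HuT78 and 1.83 ± 0.07 against MY-LA. TRAT1, an adaptor of the complex, read 1318 ± 95.5 in HuT102 and 687 ± 77.03 in HuT78 and under background in MJ and MY-LA.

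Of 30 T lineage transcription factors read of 33 listed, 9 were higher and 7 lower than the mean (all genes 8.26% and 7.6%). GATA3, the T helper 2 factor, read 1908, 1971, 2052 and 2069 in HuT102, 10782, 10565, 10723 and 10982 in MJ, 12905, 10956, 11865 and 10089 in HuT78 and 16236, 14046, 13829 and 14156 in MY-LA. HuT102 lay below all other arrays, with differences of -2.42 ± 0.07, -2.50 ± 0.07 and -2.85 ± 0.07. TBX21, the T helper 1 factor T-bet, read 3519, 3751, 3699 and 3452 in HuT102 and 2096, 2085, 1852 and 1940.2 in MJ, a difference of 0.85 ± 0.23, and 68.2 ± 11.9 and 54.3 ± 32.1 in HuT78 and MY-LA. HuT102 was thus the line with the highest TBX21 and the lowest GATA3. SATB1, a chromatin organiser, read 8867 ± 322 in HuT102, 6027 ± 154 in MJ, 2816 ± 539.6 in MY-LA and 43.6 ± 13.6 in HuT78. LEF1, a Wnt factor of naive T cells, read 74.4 ± 37 in HuT102, 417 ± 67.4 in MJ, 20731 ± 781 in HuT78 and 1427 ± 142 in MY-LA. IKZF2, the factor Helios, read 9.11 ± 12.96 in HuT102 and under background, against 1650 ± 92.3 in MJ, 6291 ± 472 in HuT78 and 202 ± 46.9 in MY-LA. HuT102 was the lowest line for LEF1 and IKZF2, which were both highest in HuT78. BCL11B differed from the mean by -0.25 ± 0.12 (adjusted p = 0.103) and was not called.

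Among 24 costimulatory and checkpoint molecules read of 25 listed, 8 were higher and 4 lower than the mean (all genes 8.26% and 7.6%). ICOS, a costimulatory receptor, read 67.2, 104, 53.5 and 114 in HuT102, 4873, 5076, 5263 and 4955 in MJ, 363, 393, 408 and 415 in HuT78 and 9642, 9887, 11022 and 10088 in MY-LA. It was lowest in HuT102 with no overlap, with differences of -5.70 ± 0.14 to MJ, -2.07 ± 0.14 to HuT78 and -6.71 ± 0.14 to MY-LA. HAVCR2, the exhaustion receptor TIM-3, read 2219.6, 1738, 2357 and 2202 in HuT102 and 133, 58.05, 60.8 and 80.9 in MJ, and 71.8 ± 11.1 and 56.5 ± 24.5 in HuT78 and MY-LA. CD274, the ligand PD-L1, read 2057 ± 157 in HuT102, 392.2 ± 78.6 in MJ, 578 ± 67.6 in MY-LA and 32.8 ± 8.44 in HuT78. CD200, an inhibitory ligand, read 523 ± 77.2 in HuT102 and under background elsewhere. HuT102 was therefore the highest line for HAVCR2, CD274 and CD200. CD86, a ligand of CD28 and CTLA4, read 8411 ± 380.1 in HuT102, 3722 ± 366 in MJ, 6899 ± 398 in MY-LA and 18.7 ± 27.4 in HuT78. TIGIT read 213 ± 35.7 in HuT102 against 6024 ± 193 in MJ and 7399 ± 601 in MY-LA, and 40.9 ± 12.9 in HuT78. CTLA4 read 40.1 ± 24.7 in HuT102 and 30.6 ± 11.7 in HuT78 against 420 ± 34.3 in MJ and 729 ± 94.8 in MY-LA. ENTPD1, the ectonucleotidase CD39, was lower than in every line, with differences of -3.89 ± 0.15, -2.66 ± 0.15 and -4.99 ± 0.15.

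Of 39 TNF superfamily ligands and receptors read of 40 listed, 15 were higher and 5 lower than the mean (all genes 8.26% and 7.6%). Against MJ the counts were 9 and 6 (all genes 6.72% and 8.18%). TNFSF13B, the B cell factor BAFF, read 3000.5 ± 477 in HuT102, 93.05 ± 24.6 in MJ, 50.8 ± 9.88 in HuT78 and 41.8 ± 12.4 in MY-LA. TNFRSF21, death receptor 6, read 1742 ± 154.7 in HuT102 and at most 34.9 elsewhere. TNFRSF10D, a decoy receptor for TRAIL, read 441 ± 58.5 in HuT102 and 189.5 ± 37.5 in HuT78. These were higher than in every line, as was CD40, by 2.23 ± 0.10, 1.52 ± 0.10 and 2.31 ± 0.10. TNFRSF8, the CTCL antigen CD30, read 6612 ± 427 in HuT102, 5082 ± 302 in MJ, 1347 ± 90.7 in HuT78 and 709.7 ± 113 in MY-LA, so MJ came close at a difference of 0.38 ± 0.09.

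Cytotoxic genes split. Of 20 read of 24 listed, 5 were higher and 6 lower than the mean (all genes 8.26% and 7.6%). GZMB, the protease granzyme B, read 1379 ± 214 in HuT102, 43.3 ± 11.9 in MJ, 42.1 ± 17.99 in HuT78 and 97.4 ± 22.4 in MY-LA, whereas PRF1, the pore former perforin, was lower than in every line. PRF1 read 391.7 ± 24.2 in HuT102, 3417 ± 304 in MJ, 10597 ± 955 in HuT78 and 1753 ± 117 in MY-LA, with differences of -3.07 ± 0.08, -4.70 ± 0.08 and -2.12 ± 0.08. NKG7, a granule membrane protein, read 4279 ± 607 in HuT102 and 1689 ± 139 in HuT78, a difference of 1.32 ± 0.19, with 85.5 ± 28.02 in MJ and 29.3 ± 11.6 in MY-LA.

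Of 16 MHC class II genes, 3 were higher and 4 lower than the mean (all genes 8.26% and 7.6%). Of 19 class I and processing genes read of 21 listed, 3 were higher and 1 lower. Against MJ the class I counts were 0 and 1 (all genes 6.72% and 8.18%). HLA-DRA read 17743 ± 3409 in HuT102 and 20404 ± 370.1 in MJ, a difference of -0.22 ± 0.23 (adjusted p = 0.525), against 1252 ± 139 in HuT78 and 32.4 ± 24.04 in MY-LA. HLA-DQB1 read 7545 ± 1291 in HuT102 and 3688 ± 629 in MJ, and its difference to MJ of 1.03 ± 0.13 fell under the size asked for a call without array 4 of HuT102 (0.94) or array 1 of MJ (0.90). Of its 6 other probe sets, 3 were called higher than the mean, by 3.34, 4.40 and 6.67, and 3 were not called, at 0.78, 0.14 and -0.21, so the size of HLA-DQB1 depends on the probe set. HLA genes are near-identical and polymorphic, so their probe sets may read alleles of the lines unequally. ERAP2, a peptide-trimming enzyme, was lower than in every line, with differences of -3.0 ± 0.08 against MJ, -1.49 ± 0.08 against HuT78 and -3.88 ± 0.08 against MY-LA.

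Matrix and contractile genes went both ways. Of 50 read of 53 listed, 16 were higher and 10 lower than the mean (all genes 8.26% and 7.6%). COL4A1, a chain of basement membrane collagen, read 8501, 8624, 8188 and 7318 in HuT102, 59.8, 33.5, 71.99 and 42.2 in MJ, 22.2, 4.81, 15.8 and 15 in HuT78 and 40.03, 64.98, 24.9 and 56.99 in MY-LA. COL4A2, its partner from the neighbouring gene, read 3029.6 ± 469.8 in HuT102 and 146 ± 11.6 in MY-LA, with MJ and HuT78 under background. COL6A3, a chain of microfibrillar collagen, read 5476, 4951, 5283 and 4861 in HuT102 and at most 107 in any array of another line. HuT102 was thus far over all other arrays for these 3 collagens. SPARC, a collagen-binding protein, read 1673 ± 259.9 in HuT102 and at most 38.6 elsewhere, and LAMC1, a laminin chain, 1124 ± 94.3 against 103 ± 11.4 in MJ. TIMP1, an inhibitor of matrix proteases, was over background in every line, with differences of 3.30 ± 0.06, 3.50 ± 0.06 and 4.65 ± 0.06. CAV1, the coat protein of caveolae, read 6718 ± 225 in HuT102, 3926 ± 263 in MJ, 132 ± 20.8 in HuT78 and 5.57 ± 1.98 in MY-LA. COL3A1 was instead read in MJ (2055 ± 83.6) and MY-LA (3656 ± 377) and under background in HuT102 (24.99 ± 23.7). HuT102 was therefore the highest line for SPARC, LAMC1, TIMP1 and CAV1, though not for every collagen. S100A10, the partner of annexin A2, read 58.9 ± 46.3 in HuT102, 403 ± 46.8 in MJ, 5513 ± 485 in HuT78 and 5561 ± 369 in MY-LA. ANXA5, the phosphatidylserine-binding annexin, was higher than in every line, by 1.60 ± 0.05, 2.44 ± 0.05 and 1.75 ± 0.05.

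Genes known to be raised by Tax, the HTLV-1 activator, gave most of their higher calls against HuT78. Of 35 read of 37 listed, 17 were higher and 3 lower than the mean (median 0.99, all genes 8.26% and 7.6%). The counts were 22 and 1 against HuT78 (median 2.16, all genes 12.8% and 11.6%), 13 and 3 against MY-LA (median 0.59, all genes 11.1% and 9.51%), and 3 and 8 against MJ (median -0.12, all genes 6.72% and 8.18%). CADM1, an adhesion molecule used as a marker of HTLV-1 infected cells, was higher than in every line. It read 13039 ± 1313 in HuT102, 1928 ± 174 in MJ, 113 ± 38.8 in HuT78 and 36.6 ± 19.7 in MY-LA, a difference of 2.75 ± 0.24 to MJ. EGR1, an immediate early factor, read 7295 ± 479 in HuT102 and 5293 ± 594 in MJ, a difference of 0.47 ± 0.28 (adjusted p = 0.218), against 218 ± 25.2 in HuT78 and 38.8 ± 24.8 in MY-LA. IRF4, a factor of activated lymphocytes, read 7728 ± 345 in HuT102, 4478 ± 120.3 in MJ, 2993 ± 265 in MY-LA and 169 ± 21.9 in HuT78.

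Diagnostic marker genes of CTCL gave 4 higher and 7 lower of 31 read of 32 listed (all genes 8.26% and 7.6%). VCAM1, an adhesion molecule, read 64.98 ± 22.2 in HuT102, 2148 ± 177 in MJ, 183 ± 23.8 in HuT78 and 5434 ± 366 in MY-LA. GTSF1, a germline gene found in CTCL, read 44.7 ± 13.8 in HuT102 and 110.1, 118, 77.05 and 103 in the MJ arrays, against 10740 ± 568 in HuT78 and 7591 ± 822 in MY-LA. HuT102 was under background for both of these genes.

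Of 23 Janus kinase, STAT and feedback genes read of 26 listed, 5 were higher and 4 lower than the mean (all genes 8.26% and 7.6%). SOCS2, a feedback inhibitor of STAT5 signals, read 12337 ± 424 in HuT102 and was higher than in every line, by 4.18 ± 0.11, 3.83 ± 0.11 and 3.42 ± 0.11. SOCS1, another feedback inhibitor, read 2948 ± 145 in HuT102, 3694 ± 345 in MJ and 3988 ± 308 in MY-LA and 9.03 ± 7.46 in HuT78. STAT3 differed by 0.95 ± 0.06 from MJ, 1.64 ± 0.06 from HuT78 and 1.06 ± 0.06 from MY-LA. Of 30 AP-1, BATF, IRF and MYC factors read of 32 listed, 11 were higher and 3 lower (all genes 8.26% and 7.6%). Against MJ the counts of these factors were 4 and 4 with a median of -0.26 (all genes 6.72% and 8.18%). JUN read 11831 ± 931 in HuT102, 2440.4 ± 318 in MJ, 232 ± 17.7 in HuT78 and 7545 ± 605 in MY-LA. ATF3, a stress-induced factor, was higher than in every line, by 1.24 ± 0.22, 3.76 ± 0.22 and 1.02 ± 0.22, though its difference to MY-LA was 0.97 and not called without array 4 of HuT102, and likewise without array 1 of MY-LA. CEBPB, a factor of the acute response, was lower than in every line, with differences of -2.65 ± 0.12, -3.45 ± 0.12 and -2.05 ± 0.12, and so was MYB, a proto-oncogene of blood cells, with differences of -2.41 ± 0.09, -3.35 ± 0.09 and -2.14 ± 0.09. HuT102 was thus the highest line for JUN and ATF3 and the lowest for CEBPB and MYB. Of 33 genes of ERK feedback read of 34 listed, 8 were higher and 5 lower (all genes 8.26% and 7.6%). DUSP1, a phosphatase of MAP kinases, read 13690.5 ± 535 in HuT102, 1537 ± 93.97 in MJ, 403 ± 59.7 in HuT78 and 11.7 ± 10.6 in MY-LA, but another of its probe sets differed from the mean by 0.51 and was not called. SPRY2, an inhibitor of ERK signals, read 1046 ± 57.5 in HuT102 and under background elsewhere. DUSP6, the phosphatase of ERK, went the other way, at 70.8 ± 37.2 in HuT102 and 111 ± 24.4 in MJ against 9750.3 ± 689.6 in HuT78 and 1183 ± 137 in MY-LA.

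Of 18 BCL2 family genes read of 19 listed, 5 were higher and 2 lower than the mean (all genes 8.26% and 7.6%), and 1 was higher and 1 lower than in every line (all genes 3.38% and 1.92%). MCL1, an anti-apoptotic member, differed by 1.20 ± 0.05, 1.51 ± 0.05 and 1.43 ± 0.05, and BID, above, was the member lower than in every line. Of 37 NF-kB genes read of 41 listed, 9 were higher and 4 lower than the mean (all genes 8.26% and 7.6%), though against MJ the counts were 3 and 13 (all genes 6.72% and 8.18%). TRAF3, which restrains the alternative NF-kB pathway, was lower than in every line, with differences of -2.32 ± 0.12, -2.74 ± 0.12 and -1.53 ± 0.12. Of 25 p53 targets read of 28 listed, 6 were higher and 1 lower than the mean (all genes 8.26% and 7.6%). Against HuT78 the counts were 19 and 1 (all genes 12.8% and 11.6%). They were 2 and 3 against MJ (all genes 6.72% and 8.18%), and 3 and 3 against MY-LA (all genes 11.1% and 9.51%). CDKN1A, the cell cycle inhibitor p21, read 10966 ± 502 in HuT102, 6488 ± 462 in MJ, 10062 ± 931 in MY-LA and 264 ± 28.9 in HuT78. CDK6, a kinase of cell cycle entry, likewise read 9651 ± 946 in HuT102, 8280.2 ± 212 in MJ, 8164 ± 706 in MY-LA and 66.97 ± 10.7 in HuT78. For both genes HuT78 was the lowest line with no overlap of arrays.

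Of 31 hypoxia and glycolysis genes read of 33 listed, 2 were higher and 8 lower than the mean (all genes 8.26% and 7.6%). HILPDA, a lipid droplet protein induced by low oxygen, read 2476 ± 1041 in HuT102 and 15582 ± 2189.6 in MJ, with differences of -2.73 ± 0.21, -1.69 ± 0.21 and -1.73 ± 0.21. HK2, the hexokinase of proliferating cells, differed by -2.12 ± 0.12, -2.10 ± 0.12 and -1.29 ± 0.12. VEGFA, the angiogenic factor, differed by -1.77 ± 0.12, -2.13 ± 0.12 and -1.25 ± 0.12. PDK1, which turns pyruvate from the mitochondria, differed by -1.73 ± 0.20, -1.56 ± 0.20 and -1.15 ± 0.20. On the probe sets used, these 4 were lower than in every line, although PDK1 against MY-LA was not called without array 2 of HuT102 (-0.88). Other probe sets of HK2 (-0.72 and -0.76) and of PDK1 (-0.92 and -0.42) differed from the mean by less and were not called. The higher pair were ADM, the peptide adrenomedullin, at 6046 ± 693 in HuT102 and 468 ± 254 in HuT78 with MJ and MY-LA under background, and NDRG1, by 1.46 ± 0.11, 3.20 ± 0.11 and 5.84 ± 0.11. Of 29 stress response genes, 2 were higher and 9 lower than the mean (all genes 8.26% and 7.6%), with ATF3 and CEBPB above among them.

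Growth and housekeeping lists differed in their counts, which stand beside 8.26% of all genes higher and 7.6% lower than the mean. None of 28 mitosis genes, of 39 oxidative phosphorylation subunits read of 44 listed or of 30 ribosomal proteins read of 44 listed passed both thresholds of the limma test against the mean. Of these, 25, 23 and 11 had an unadjusted p under 0.05, as had 50.7% of all genes. By the adjusted p alone 3 mitosis genes were higher and 21 lower, where 21.7% and 24.9% of all genes were, and the median of the list was -0.48. Of 33 replication genes read of 34 listed, 2 were lower and none higher, and 26 had an unadjusted p under 0.05. Of 17 cyclins, inhibitors and RB family genes read of 20 listed, 5 were higher and none lower, and 11 had an unadjusted p under 0.05. Of 21 DNA methylation and Polycomb genes read of 22 listed, 4 were lower and none higher, and 18 had an unadjusted p under 0.05. CBX7, a Polycomb reader, was lower than in every line, with differences of -2.70 ± 0.18, -1.61 ± 0.18 and -3.40 ± 0.18. Of 22 cholesterol and fatty acid genes read of 29 listed 3 were higher, and of 13 metallothionein and zinc genes read of 14 listed 2 were higher. Of 18 cancer-testis antigens read of 30 listed, 3 were lower, and none was over background in HuT102. Of 20 annexins and S100 proteins, 6 were higher and 2 lower.

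**Figure D4:**
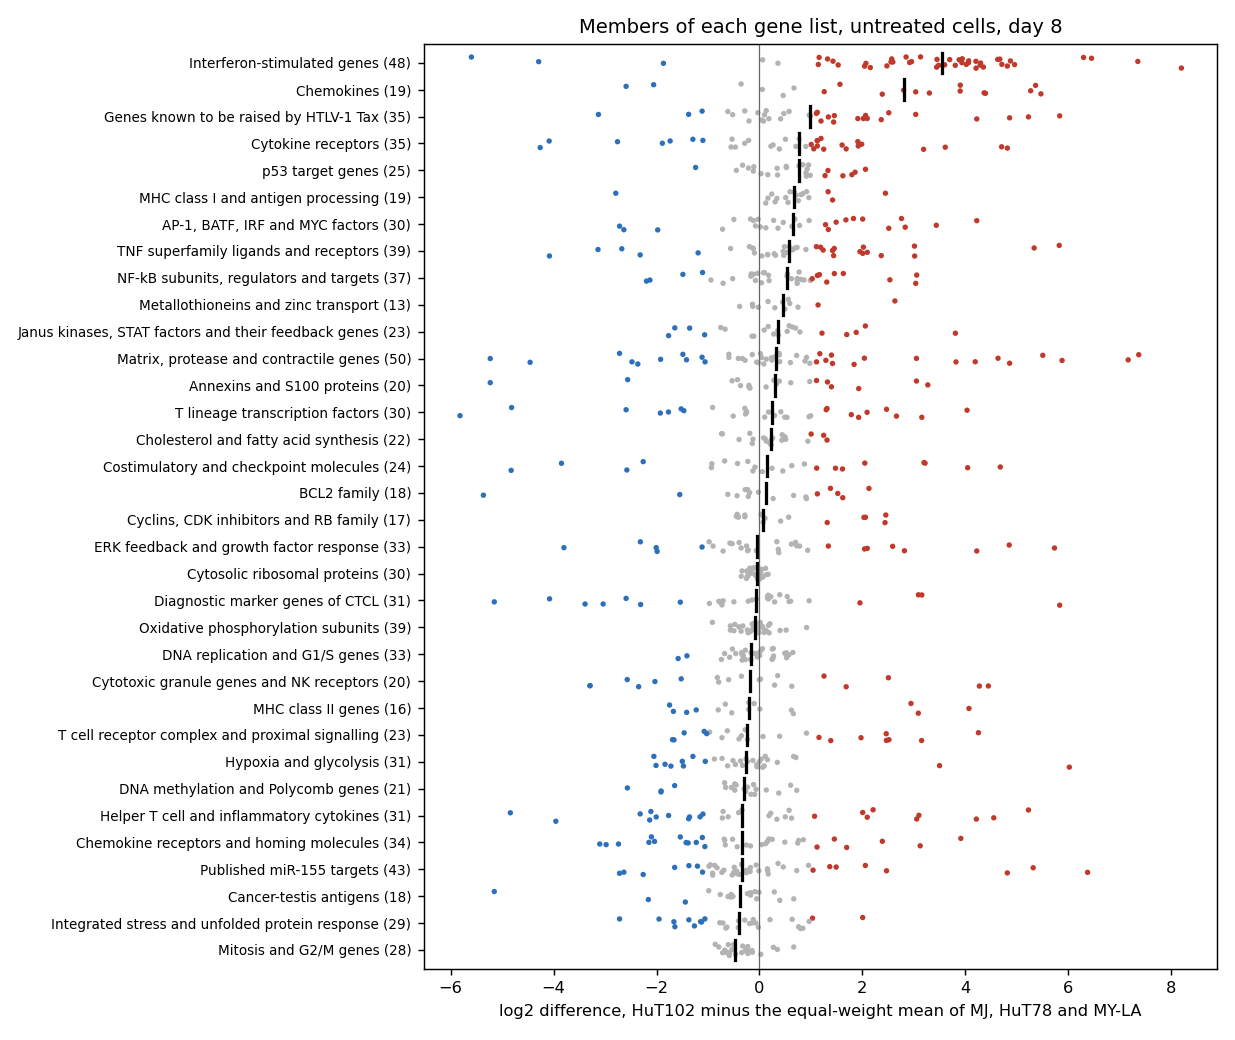
Log2 difference of HuT102 minus the equal-weight mean of MJ, HuT78 and MY-LA at day 8 for each member of the 34 gene lists, with the number read in brackets; red and blue points passed the thresholds as higher and lower, grey points did not, and black bars are medians. The interferon-stimulated genes have the highest median, 3.54, and the mitosis genes the lowest, -0.48; values of genes near background depend on the 16 added before the logarithm.

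The transcript that hosts miR-155, the target of the oligonucleotide in the rest of the study, was high in HuT102, MJ and MY-LA. Its probe set, shared by the symbols MIR155 and MIR155HG, read 24428 ± 1096 in HuT102, 19956 ± 496 in MJ, 29.9 ± 7.73 in HuT78 and 24943 ± 1277 in MY-LA. The difference to MJ was 0.29 (2-sided exact permutation test, p = 0.0286, the smallest that 4 against 4 allows, and 0.0429 adjusted over 3 comparisons). That to MY-LA was -0.03 (exact p = 0.543), and HuT78 was under background. Of 43 published miR-155 targets read of 47 listed, 8 were higher and 7 lower than the mean (all genes 8.26% and 7.6%). The median of the list was -0.35. PALLD, an actin scaffold, read 12631 ± 899 in HuT102, 117 ± 16.1 in MJ, 329.6 ± 38.8 in HuT78 and 60.9 ± 7.15 in MY-LA. SMAD1, a mediator of BMP signals, read 962 ± 12.5 in HuT102 and at most 15.3 elsewhere. PALLD, SMAD1 and IL13RA1 were thus higher in HuT102 than in each line, and CEBPB and MYB were lower. The relation of these genes to miR-155 was not tested.

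Markers of other cell types were mostly at or near background in HuT102. Of 9 T cell markers read, 9 were over background, with a summed signal of 29102 to 33807 in the HuT102 arrays against 31150 to 46680 in the others. Of 7 B cell markers read, 4 were over background in each line, and the summed signal was 4398 to 5046 in HuT102, 849 to 985 in MJ, 799 to 1027 in HuT78 and 2660 to 2822 in MY-LA. This rested on EBF1, at 2932 ± 136 in HuT102 and 2092 ± 60.7 in MY-LA, and PAX5, at 1148 ± 105 in HuT102 against 146 ± 28.9 in MJ. Another probe set of PAX5 was under background in every line, at 20.3 in HuT102, and was not called. Of 8 myeloid markers read 2 were over background in HuT102 (summed 363 to 511, against 448 to 840 in the others). Of 6 NK markers read 1 was over background (summed 333.6 to 385.2, against 397 to 13099). Of 8 fibroblast markers 3 were over background, and the summed signal of 806 to 1439 was below the 2547 to 5112 of the other lines. PDGFRA alone of these was higher, at 791 ± 225 against 192 ± 29.9 in MJ, beside the collagens above, and COL3A1 was under background. Of 7 epithelial markers 1 was over background, with EPCAM at 20.6 ± 14.3 against 8926 ± 689.5 in HuT78 and CDH1 at 5.14 ± 3.42 against 779 ± 47.9 in MY-LA. Endothelial markers summed to 202 to 332 in HuT102 and 205 to 300 in the others, with 1 of 6 over background, and erythroid markers to 1018 to 1164 against 699 to 1672, with 2 of 3. The part of PAX5, EBF1 and PDGFRA in the results was not tested.

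The day 4 arrays gave a second reading of the same contrast with other samples, for MJ and MY-LA only. At day 4, 1487 genes (7.52%) were higher in HuT102 than the mean of those lines and 1560 (7.89%) lower, 15.4% in all. Of the 668 genes higher than in every line at day 8, 545 (81.6%) were also higher than in both MJ and MY-LA at day 4, where 4.13% of all genes were. Of the 379 lower genes, 301 (79.4%) were lower than in both, where 3.54% of all genes were. The day 4 difference had the same sign against both lines in 658 and 375 of these genes, and 0 passed the thresholds in the opposite direction in both. Of the 48 interferon genes, 27 were higher than in both lines and 3 lower. These 27 were not all among the genes higher than in each line at day 8. ISG15, ISG20, IRF9, IFIH1, IFIT5 and SAMD9 were higher than in each line at day 8 but not than both lines at day 4. XAF1, CMPK2, DTX3L, LGALS3BP and GBP4 were higher than both lines at day 4 but not than each line at day 8. In HuT102, MX1 read 9869 at day 4 and 22069 at day 8, IFIT1 1742 and 8710.2, and IFI44L 3694 and 10679.7, a difference between days that was not tested. IFI27 read 267 in HuT102 and 316 in MJ at day 4, so HuT102 was not called higher than MJ there. IFITM1, IFITM2 and IFITM3 were lower than in both lines at day 4 too, at 1044, 233 and 59.2 in HuT102 against 13807, 10014 and 7343 in MJ. The genes furthest from every line at day 8 lay far apart at day 4 too, with G0S2 at 29217 in HuT102 against 13.1 in MJ and CRIP1 at 15.8 against 11552. IL15 read 28409 against 407 in MJ, and GATA3 1477 against 11534.

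**Figure D5:**
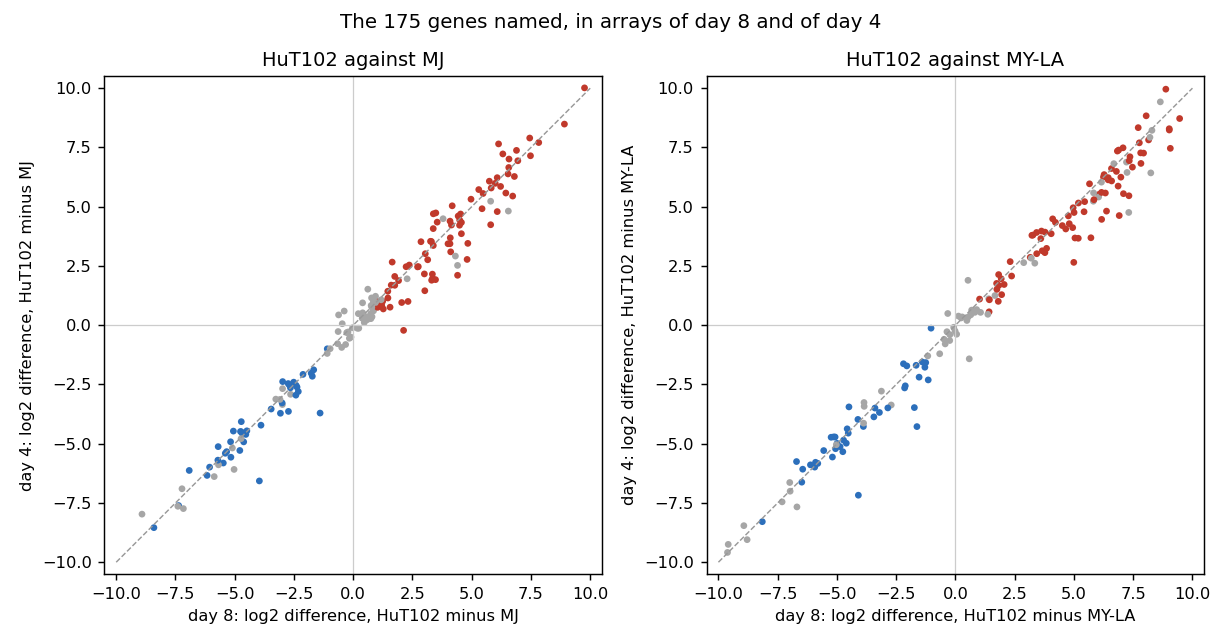
Log2 difference of HuT102 minus MJ (left) and minus MY-LA (right) for the 175 genes named, at day 8 (horizontal axis) and at day 4 (vertical axis), each point 1 gene and the dashed line equality; red genes were higher and blue genes lower than in every line at day 8, and grey genes were neither. The genes were named from their day 8 values, and G0S2 lies near the upper right corner in both panels.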

How the data were processed

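Total RNA of each sample was labelled with biotin and read on an Affymetrix array with 54675 probe sets, of which 62 are controls. The deposited values are MAS5 signal intensities, per the submitters' processing notes, scaled by the authors to a common trimmed mean (trim of 2% at each end, as read from the values). The depth of an array is unknown, and the number of arrays limits the precision. Probe sets were named from the platform annotation: 41091 had 1 gene symbol, 1801 several and 11721 none. For each of 19775 genes, 1 probe set was kept, that whose mean log2 value across the 56 arrays was highest. All genes were kept, because a filter on the mean removes genes that 1 line expresses. The level near background was the median of the values of all probe sets over the 56 arrays, a signal of 74.0.

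Values were taken as log2(signal + 16) and fitted with limma (lmFit and eBayes) over the 16 untreated day 8 arrays, with 12 residual degrees of freedom, and Benjamini-Hochberg adjustment over all genes. A call needs an adjusted p under 0.05 and a log2 difference of at least 1. Genes were named by a fixed rule: the 15 furthest above and the 15 furthest below every line with no overlap of arrays, the 5 furthest each way from each line, members of the lists with called members first, the markers, and the miR-155 host transcript. The members and lists were chosen with earlier results of these data known. Alternatives were other values added before the logarithm, quantile normalization, filters on low genes, a test against the minimum fold (treat), every probe set, leaving out each array and leaving out each line. The day 4 fit used 12 arrays of HuT102, MJ and MY-LA. Software was limma 3.58.1 under R 4.3.3, with Python 3.11.15 for summaries (SciPy 1.17.1, pandas 2.3.3, NumPy 2.4.6) and Matplotlib 3.10.9 for figures. Promoter windows came from the RefSeq table of GRCh38.p14.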

Additional observations from a re-analysis of the deposited data

Results flagged for a closer look

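In 47 of 700 groups of 4 arrays (6.71%), 1 array lay further from the others than Dixon's 95% limit allows, where chance gives about 1 in 20 groups (5.0%). Each value is the signal of the array that stood apart, with the range of the other 3 arrays of its line. In array 1 of HuT102, IL6ST read 9491 (8609.7 to 8720.2), SMAD1 read 981 (955 to 957) and SPINT2 read 3.77 (14.2 to 16.5). In array 2 of HuT102, HS6ST2 read 6865 (5982 to 6025), IFITM1 read 4651 (5992 to 6141) and CRLF2 read 16.3 (12.9 to 13.3). Array 2 of HuT102 also stood apart where CD3E read 115 (180.2 to 189), TNFSF13B read 2295 (3148 to 3339) and LAMC1 read 1265 (1068 to 1087). Array 2 of HuT102 also stood apart where ADM read 5016 (6260.1 to 6483), PAX5 read 1304 (1085 to 1107) and CA2 read 10783 (13407 to 13843). Array 2 of HuT102 also stood apart where WFDC1 read 17 (4.51 to 5.24). In array 3 of HuT102, IKZF2 read 28.5 (2.32 to 3.07) and CEBPB read 299 (384 to 404). In array 4 of HuT102, IFNG read 6326 (4994 to 5136), PDGFRA read 455 (877 to 933) and ERAP2 read 406 (319 to 325). In array 1 of MJ, HLA-DQB1 read 2758 (3840.4 to 4088). In array 2 of MJ, MX1 read 190 (343 to 382), ENTPD1 read 2724 (2420.5 to 2443) and VCAM1 read 2413 (2052 to 2071). In array 4 of MJ, IL1A read 2358 (1902 to 1961), IL2RB read 4561 (5155 to 5217) and CD2 read 6262 (7130.1 to 7246). Array 4 of MJ also stood apart where CD274 read 276 (409.9 to 442), TNFRSF21 read 86.1 (15.97 to 19.8) and STAT3 read 7189.7 (6921 to 6958). Array 4 of MJ also stood apart where HK2 read 4144 (3034 to 3069.8). In array 1 of HuT78, IL24 read 7.58 (32.1 to 38.3), EBF1 read 38.6 (1.83 to 5.58) and CCL22 read 85.9 (16.1 to 16.7). Array 1 of HuT78 also stood apart where ATF3 read 934 (316 to 344). In array 2 of HuT78, NR2F1 read 22.8 (1.15 to 3.58) and BID read 3103 (2615 to 2642). In array 4 of HuT78, ADARB1 read 1358 (1903 to 2032), CD48 read 9306 (7757 to 7851) and IL2RB read 697 (994 to 1057). Array 4 of HuT78 also stood apart where CD3D read 18469.5 (17089 to 17315), GTSF1 read 11589.5 (10406 to 10491) and CSTA read 5.87 (26.8 to 30.7). In array 1 of MY-LA, BCL11B read 1606 (1071 to 1116) and GATA3 read 16236 (13829 to 14156). In array 3 of MY-LA, EGR1 read 2.22 (44.7 to 54.4), VEGFA read 1465 (1775 to 1810.5) and ADM read 24.8 (7.53 to 9.64). Array 3 of MY-LA also stood apart where TIGIT read 8294 (7001 to 7164).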

How the results depend on the processing

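With every line kept, other values added before the logarithm (1 or 64) and quantile normalization left the counts of called genes within 1.5 times of those above. A filter on gene means at the median of all gene values left 9747 genes, with 949 higher and 873 lower than the mean, 729 and 911 against MJ, 1428 and 1498 against HuT78, 1276 higher than MY-LA and 300 higher than every line. A filter at the 75th percentile left 4742 genes, with 290 and 246 against the mean, 224 and 271 against MJ, 562 and 548 against HuT78, 367 and 489 against MY-LA, and 84 higher and 94 lower than every line. Both filters test fewer genes by construction. The treat test gave 1086 and 836, 736 and 807, 1523 and 1405, 1340 and 1113, and 365 and 207 in the same order. Testing all 41091 probe sets gave 3250 and 2669, 2703 and 2933, 5015 and 4491, 4545 and 3400, and 1286 and 644. Leaving out 1 array gave 1623 to 1686 higher and 1484 to 1539 lower than the mean, 1310 to 1355 and 1589 to 1660 against MJ, 2473 to 2650 and 2273 to 2346 against HuT78, 2193 to 2270 and 1878 to 1923 against MY-LA, 652 to 687 and 377 to 409 against every line, and 1458 to 1520 and 1539 to 1618 at day 4. Some genes turned direction against the mean with another probe set: ADARB1 (0.015), AKAP12 (-0.21), ARHGEF10 (0.88), BCL11B (0.52), CD247 (0.60), HLA-DQB1 (-0.21), ITGB1 (-0.24), LTB (0.38), PDGFRA (-0.35), PGM5 (0.48) and SOCS1 (-0.45). None of these other probe sets was called. Apart from those of ARHGEF10, BCL11B and LTB, they were under background in every line. Others turned when 1 line was left out of the mean: ARHGEF10 without MJ (0.031), BCL11B (0.31), CD247 (0.14), IL2RA (-0.13) and SOCS1 (-0.38) without HuT78, and LCK without MY-LA (-1.60). The cause was not tested. Among the named genes that were called against the mean, 168 other probe sets were over background in a line. Of these, 146 were called in the same direction and 0 in the opposite one. Called genes that are not named were not counted here. The median difference of the interferon-stimulated genes ran from 2.68 without MY-LA to 4.03 without MJ. Of the medians of the 34 lists, 24 were counted as moved without HuT78, 21 without MJ and 20 without MY-LA. With 1 or 64 added before the logarithm 7 and 10 moved, and with quantile normalization 2. No paired analysis was possible because the labels give the arrays of different lines no shared replicate numbers. Signal over background limits what can be said of genes near a signal of 74.0.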
